A study of Arabidopsis thaliana with 12 samples.

Results

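This account concerns the departure from additivity when the mutations ccr1-3 and fer4 are combined in inflorescence stems of Arabidopsis thaliana. Messenger RNA was sequenced from main stems of plants aged 2 months. The 4 genotypes were the double mutant ccr1-3/fer4 (ccrfer), the single mutant fer4 (labelled fer), the single mutant ccr1-3 (ccr) and the Col-0 wild type (WT). Each genotype had 3 libraries. All 12 libraries were used, and 18428 of the 27655 genes in the table of FPKM values (a fragment count normalised for the length of the transcript and for how deeply a library was sequenced) were examined. These reached an FPKM of 1 or more in 3 or more libraries. For each gene the ccr minus WT difference was subtracted from the ccrfer minus labelled fer difference, both from genotype means of log2(FPKM + 1), and the outcome is called the interaction. An interaction above 0 means that ccrfer lay above the sum of the single-mutant differences, and one below 0 that it lay below. Every gene that passed the filter is a member, so no measured difference chose them.

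CCR1 encodes cinnamoyl-CoA reductase, which commits hydroxycinnamoyl-CoA esters to lignin, the phenolic polymer that stiffens xylem and fibre walls. FER encodes FERONIA, a receptor kinase of the plasma membrane that binds peptides of the rapid alkalinization factor family and pectin, and is known for its part in wall surveillance, growth and immunity. In Arabidopsis, mutants with little lignin are known for collapsed xylem, dwarf growth and raised defence gene expression. According to its description, the study asked how much of the ccr1-3 response depends on FERONIA. On the log scale, 2 mutations that act independently multiply each other's fold changes, so the additive expectation for ccrfer is the product of both single-mutant folds. It is given below back in FPKM, after removal of the pseudocount of 1, where it came out above 0.

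The FER transcript went against the label of the single mutant. FER (AT3G51550) was at 0.894, 0.159 and 1.49 FPKM in ccrfer, 85.1, 83.1 and 84.0 in the libraries labelled fer, 100.4, 97.7 and 96.5 in ccr, and 85.9, 83.5 and 83.0 in WT. It was nearly absent from ccrfer, while the libraries labelled fer overlapped WT. The FER interaction was -5.81 (SE 0.278, adjusted p = 1.95e-08) in limma. Whether the libraries labelled fer lack FERONIA function cannot be told from this transcript, so every direction that involves them, the interaction included, is that of the libraries labelled fer. The labels call the libraries biological replicates without saying which plants were pooled, and p-values measure the spread between these libraries.

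Libraries held 56884740 to 227159338 reads, of which 91.4% to 94.2% were mapped, and 6064 to 9582 genes were listed at FPKM 0 in a library. The median SD of a gene across replicates on the log2 scale was 0.202 in ccrfer, 0.155 in the libraries labelled fer, 0.0780 in ccr and 0.0846 in WT. The rRNA-related gene AT2G01021 lay between 42536 and 45932600 FPKM and was highest in ccrfer replicate 3. That library also had the most genes at 0 (9582) and the lowest array weight of the 12 libraries (0.105), and without it 8415 genes were called for the interaction described below, against 7270 with it. Stem identity was read from the 22 genes of secondary wall cellulose and xylan, whose summed FPKM was 1379.5 to 1481 in ccrfer, 621 to 661 in the libraries labelled fer, 789 to 799 in ccr and 57.2 to 62.6 in WT. The wild-type stems were thus low in transcripts that define maturing xylem and fibres. These genes therefore do not show that the WT tissue matched that of the mutants, and WT enters every interaction. Whether the stage or part of the stem sampled differed between genotypes was not tested. The 11 phloem markers were all above 0 in every library, and none of the 10 flower markers passed the expression filter.

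Additivity failed for a large share of the transcriptome. The interaction was called for 7270 of 18428 genes (39.5%) at an adjusted p under 0.05, 3149 of them higher (17.1% of the genes tested) and 4121 lower (22.4%). Among the called genes the median absolute interaction was 0.89, and 1250 genes lay above and 1887 below the expectation by at least 1, which is a factor of 2 or more. The median interaction of all genes tested was -0.05. On the square root of FPKM 7241 genes were called, 6971 of them also called here in the same direction. In plain FPKM 7177 of the called genes had an interaction of the same sign, while 93 had the opposite sign. These plain signs were not tested. Where both single mutants lie far below WT, the sum of both differences and WT is negative (-289 for SAG12). Any ccrfer level lies above such a sum, so the sign is fixed in advance. On the log scale the expectation can also fall below any possible level, and the sign of the interaction is then fixed too. This held for SAG12, MGDC, PRR5, EARLI1, FPF1, LTI78 and DREB1A, among the genes described below. All fits that left out 1 library called 5800 of the 7270 genes.

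The ccr difference had the same direction in both backgrounds in some genes and opposite directions in others. Over all genes tested, 2376 (12.9%) passed in both backgrounds with the same sign and 1886 (10.2%) with opposite sign. Across the 18428 genes the ccrfer minus labelled fer and ccr minus WT differences, which share no library, had a Pearson r of 0.113 and a Spearman rho of 0.0852. The differences of the other mutation, ccrfer minus ccr and labelled fer minus WT, had an r of 0.276 and a rho of 0.168. These values are descriptions across genes, which are not independent replicates. Among the called genes, 1886 (25.9%) passed the test in both backgrounds with opposite sign, a pattern that is non-additive on any scale that keeps the order of values. Of these, 1079 fell with ccr1-3 in the labelled fer background and rose with it in the WT background, and 807 had the reverse pattern. A further 1905 called genes (26.2%) passed for ccrfer minus labelled fer alone and 2406 (33.1%) for ccr minus WT alone, contrasts that called 40.6% and 43.7% of all genes tested. Both contrasts used a single estimate of spread per gene, shared by all genotypes. Replicates spread more in ccrfer and the libraries labelled fer than in ccr and WT, so calls in the backgrounds are not on equal terms. Genes that kept the sign were fewer among the called, as the call itself requires the differences to be unequal, with 528 genes whose difference was smaller in the labelled fer background and 231 whose difference was larger.

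**Figure D1:**
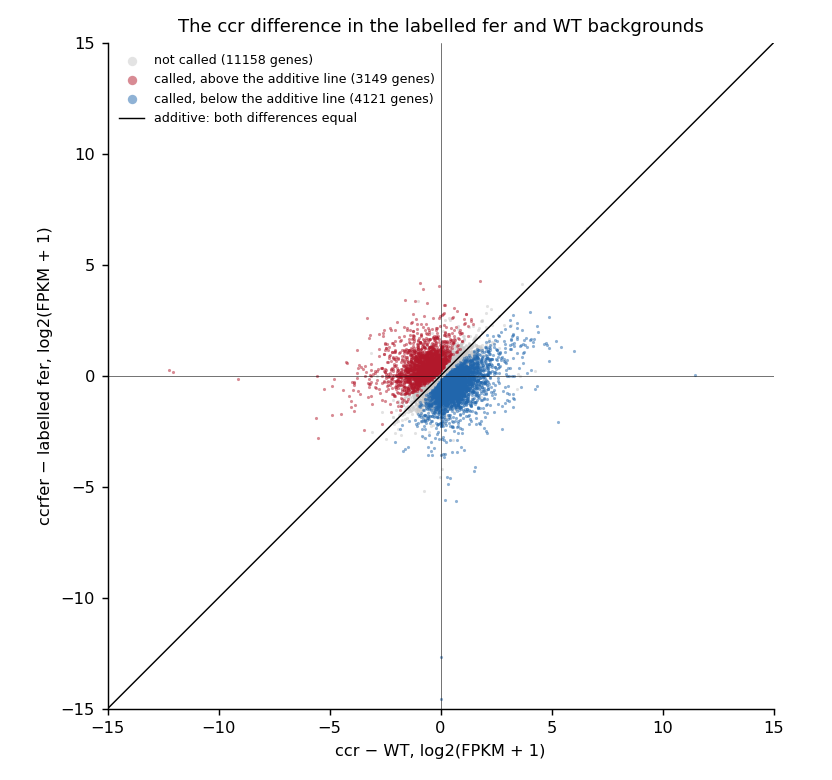
Each point is 1 of 18428 genes, with the ccr minus WT difference on the horizontal axis and the ccrfer minus labelled fer difference on the vertical axis, both on the log2(FPKM + 1) scale. The 3149 genes called above and the 4121 called below the additive line flank it on both sides, and 1886 of the called genes passed the test in both backgrounds in opposite directions.

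The genotype that stood apart was most often WT. For each gene the 4 genotype means were ordered, and a genotype was said to stand apart where the gap next to it took at least 0.5 of the whole range. WT stood apart in 2575 called genes (35.4% of the called, against 23.9% of all genes tested), with 1228 genes highest in WT and 1347 lowest. The libraries labelled fer did so in 1688 called genes (23.2%, against 17.5% of all tested), 986 of them highest there and 702 lowest. The double mutant stood apart in 353 called genes (4.86%, against 8.64%) and ccr in 312 (4.29%, against 6.2%). Without ccrfer replicate 2 the count for ccrfer was 581. A further 644 called genes (8.86%, against 17.5% of all tested) split into 2 high and 2 low genotypes, and 1698 (23.4%, against 26.4%) were graded. The sign of the interaction allows each genotype a single direction, so the split into high and low within a sign is set by construction.

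**Figure D2:**
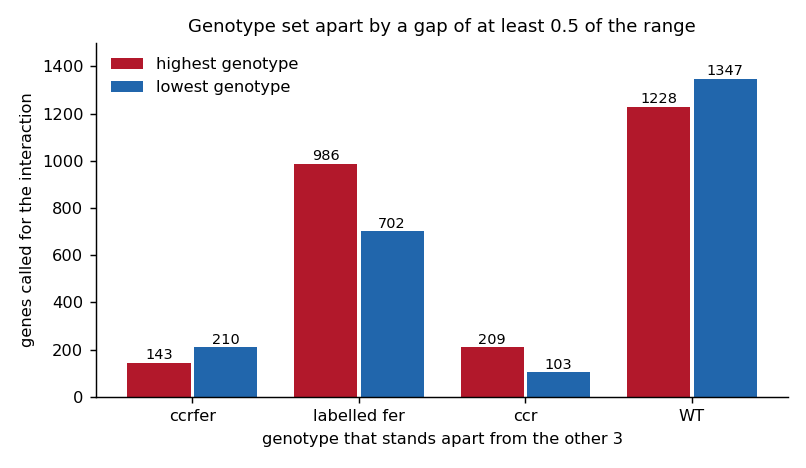
Bars count genes called for the interaction in which the genotype on the horizontal axis was the highest (red) or the lowest (blue), separated from the other 3 by at least 0.5 of the range. WT has 1228 and 1347 genes, the libraries labelled fer 986 and 702, ccrfer 143 and 210, and ccr 209 and 103.

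The processes that departed from additivity are described below by which genotype they set apart. They were read from 35 gene lists with 713 members, of which 610 passed the expression filter. Each list is given by its counts beside the background of 17.1% of genes called higher and 22.4% called lower. Levels without a named spread are means of 3 libraries. A ccrfer level set beside an additive expectation is instead the mean of log2(FPKM + 1), given back in FPKM. A number in brackets after a gene or its levels is its interaction on the log2(FPKM + 1) scale.

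Cell wall and lignin genes were low in WT and high in all 3 mutants. Of the 22 tested genes of secondary wall cellulose and xylan, 20 were called lower than the additive expectation and none higher, with a median interaction of -2.43, and WT stood apart as the lowest genotype in 18 of the 20. Of 24 lignin genes, 20 were called lower and none higher, with a median of -1.32 and WT apart as the lowest in 16. In bulk stems, more cells with secondary walls and more RNA per such cell cannot be told apart.

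IRX3 (AT5G17420), a catalytic subunit of the cellulose synthase of secondary walls, was at 141, 152 and 153 FPKM in ccrfer, 52.3, 47.5 and 47.6 in the libraries labelled fer, 90.3, 86.2 and 84.3 in ccr, and 1.41, 1.12 and 1.78 in WT. The 3 WT libraries were near the detection filter and the ccrfer libraries were the highest, with no overlap between any of the genotypes. Its interaction was -3.61 (SE 0.127, adjusted p = 1.84e-09), and the log-additive expectation for ccrfer was 1818 FPKM, far above the 148 FPKM found. IRX12 (AT2G38080), a laccase that oxidises monolignols, was at 124, 130.2 and 129.6 FPKM in ccrfer, 52.5, 50.6 and 55.7 in the libraries labelled fer, 68.2, 66.1 and 61.9 in ccr, and 1.02, 1.1 and 1.68 in WT. It had the same order of genotypes, and its interaction was -3.62 (SE 0.137, adjusted p = 3.01e-09). The other strong departures among wall genes were FLA11, a fasciclin-like arabinogalactan protein, with an interaction of -4.10, XCP2, a xylem cysteine peptidase, with -3.75, and PER64, a peroxidase, with -2.69.

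For cellulose and xylan genes the direction of the departure often depended on the scale, and for most lignin genes it did not. In plain FPKM, the sum of both single-mutant differences added to WT gave 135 for IRX3 and 251 for FLA11, against ccrfer means of 148 and 292. The ratio of the ccrfer mean to this plain sum had a median of 0.977 over the 22 cellulose and xylan genes, and 10 of the 20 called genes had an interaction of the opposite sign in plain FPKM. Over the 24 lignin genes the same ratio had a median of 0.731, and 2 of the 20 called genes, IRX12 and LAC17, changed sign. PER64 was at 40.5 FPKM in ccrfer, near its plain sum of 44.4. PAL1, which opens the phenylpropanoid pathway, averaged 483 ± 56.6 FPKM in ccrfer, 465 ± 24.7 in the libraries labelled fer, 381 ± 10.4 in ccr and 105 ± 5.0 in WT (SD, n = 3 each), where the plain sum is 741. C4H, the next enzyme, was at 418 in ccrfer, where the plain sum is 629. The ccr difference of lignin genes had a median of 0.09 in the labelled fer background and 1.61 in the WT background, and cellulose and xylan genes had medians of 1.16 and 3.74.

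The transcription factors above these genes departed less uniformly. Of 24 tested regulators of secondary walls, 11 were called lower, 2 higher and 11 did not pass, with a median of -0.74. NAC012 (SND1), a master switch of fibre walls, had 21.9 FPKM in ccrfer, 10.2 in the libraries labelled fer, 15 in ccr and 0.187 in WT, and an interaction of -2.68 (SE 0.235, adjusted p = 2.72e-06). Its plain sum is 25.0 FPKM, near the level found. Over the 24 regulators the ratio of the ccrfer mean to the plain sum had a median of 0.881. MYB20 had -2.74, and MYB85 -2.02. The 2 members above the expectation were NAC083 (VNI2) at 0.37 and XND1 at 0.68, both known as repressors of xylem vessel formation. On the square root scale the members called lower numbered 7, and AtMYB103 was not called (adjusted p = 0.445).

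Growth genes shared the pattern of a low WT. Of 12 tested auxin response genes 9 were called lower and 2 higher (median -1.51), of 18 cell division genes 12 were called lower and none higher (median -1.29), of 17 cambium genes 12 were called lower and none higher (median -0.73), and of 18 genes of primary walls and cell expansion 10 were called lower and 2 higher (median -0.54). WT stood apart as the lowest genotype in 6, 8, 7 and 7 of the called genes, in the same order of lists. EXPA15, an expansin that loosens walls, had 5.15 FPKM in ccrfer, 17.5 in the libraries labelled fer, 7.72 in ccr and 0.155 in WT (interaction -4.51). LBD4, a cambium transcription factor, had 22.6 FPKM in ccrfer, 20.2 in the libraries labelled fer, 24.7 in ccr and 3.57 in WT (-2.36), and the receptor kinase PXY, which maintains vascular stem cells, had 59.0 FPKM in ccrfer, 71.9 in the libraries labelled fer, 61.0 in ccr and 21.5 in WT (-1.74). TSO2, a ribonucleotide reductase subunit needed for DNA synthesis, had 4.56 FPKM in ccrfer, 16.2 in the libraries labelled fer, 6.99 in ccr and 3.04 in WT (-2.66). It did not share the pattern of a WT far below the rest, as WT lay near ccrfer and the libraries labelled fer were the highest. Cell division transcripts were at low levels, and with a minimum mean of 5 FPKM only 4 members were tested, of which 3 were called lower.

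The auxin repressor gene IAA19 (AT3G15540) was an example of 2 genotypes high and 2 low. It was at 2.51, 3.57 and 0 FPKM in ccrfer, 10.4, 10.4 and 9.26 in the libraries labelled fer, 9.59, 7.38 and 9.48 in ccr, and 1.7, 1.81 and 2.29 in WT. Both single-mutant groups lay above all WT libraries. The ccrfer group overlapped WT only through replicate 3, at 0 FPKM, as its other libraries lay above all WT libraries. The interaction was -3.87 (SE 0.592, adjusted p = 0.000266), with 1.52 FPKM in ccrfer and an additive expectation of 35.8. IAA1, IAA2 and AXR3 (IAA17), of the same family, instead stayed high in all 3 mutants and had interactions of -2.50, -2.1 and -2.1. GH3.3, which conjugates auxin to amino acids, had 0.703 FPKM in ccrfer, 1.7 in the libraries labelled fer, 4.15 in ccr and 0.0814 in WT. WES1 (GH3.5) was called on the other side, at 2.1.

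Some genes of FERONIA's own pathway were among those low in WT. Of 16 tested genes of the family, its ligands and partners, 7 were called lower and 1 higher. The 7 include FER itself, which was low in ccrfer and not in WT. WT stood apart as the lowest genotype in 5 of the called genes. RALF1, a peptide ligand of FERONIA, was at 11.7, 12.3 and 5.04 FPKM in ccrfer, 15.8, 10.9 and 18.0 in the libraries labelled fer, 12.8, 11.9 and 12.6 in ccr, and 1.44, 1.41 and 1.71 in WT. All mutant libraries lay above all WT libraries, and the interaction was -3.05 (SE 0.371, adjusted p = 4.27e-05). RALFL34 (-1.61), a related peptide, and the leucine-rich repeat extensin AT3G24480 (LRX4, -1.44), which holds such peptides in the wall, had the same order. HERK1, a receptor kinase of FERONIA's family, was called higher at 0.54. THE1, another member of that family, did not pass the test (-0.51, adjusted p = 0.141).

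The largest departure below the expectation outside the listed-at-0 genes described further on was that of MLP28 (AT1G70830), of the major latex protein-like family. It was at 584, 629 and 675 FPKM in ccrfer, 2685, 2698 and 2668 in the libraries labelled fer, 95.8, 86.7 and 88.1 in ccr, and 0.850, 1.24 and 2.18 in WT. All genotypes were separate, WT was the lowest, and the interaction was -7.36 (SE 0.208, adjusted p = 2.94e-10). The myrosinases TGG1 and TGG2, which cleave glucosinolates on wounding, also had WT as the lowest genotype. TGG2 had 242 FPKM in ccrfer, 110.4 in the libraries labelled fer, 94.2 in ccr and 0.518 in WT (interaction -4.90, with the opposite sign in plain FPKM), and TGG1 had 191 FPKM in ccrfer, 119 in the libraries labelled fer, 80.1 in ccr and 1.75 in WT (-4.20). The plain sum for TGG1 is 197 FPKM, close to the level found in ccrfer.

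Senescence and phosphate starvation genes were high in WT and low in all 3 mutants, and formed the main group above the expectation. Of 20 tested senescence genes 13 were called higher and 3 lower, with a median interaction of 1.63, and WT stood apart as the highest genotype in 10. Of 22 phosphate starvation genes 19 were called higher and none lower, with a median of 1.66 and WT apart as the highest in 16. Their ccr differences had medians of -0.14 and -0.40 in the labelled fer background and -1.46 and -1.74 in the WT background, senescence before phosphate in each pair. For SAG12, NAC6, BFN1, MC9, MGDC, SPX1 and the phosphate exporter and transporter below, the log-scale expectation lay below any possible level. Their interactions had to be positive whatever the ccrfer level, and only their size depends on it.

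SAG12 (AT5G45890), a cysteine protease that marks leaf senescence, was at 43.4, 43.2 and 48.1 FPKM in ccrfer, 7.76, 6.13 and 5.67 in the libraries labelled fer, 31.2, 30.5 and 33.3 in ccr, and 324, 337 and 320.5 in WT. The WT libraries were far above all others, and the libraries labelled fer were the lowest. The ccr difference was 2.62 in the labelled fer background and -3.33 in the WT background, so its direction was reversed, and the interaction was 5.95 (SE 0.129, adjusted p = 3.06e-11). NAC6 (ORE1), a senescence-promoting transcription factor, had 4.08 FPKM in ccrfer, 0.722 in the libraries labelled fer, 3.37 in ccr and 14.6 in WT (3.40). BFN1, a nuclease of dying xylem and senescing cells, had 5.23 FPKM in ccrfer, 6.17 in the libraries labelled fer, 0.889 in ccr and 29.0 in WT (3.72), and MC9, a metacaspase of xylem clearance, had 6.66 FPKM in ccrfer, 23.1 in the libraries labelled fer, 3.16 in ccr and 123 in WT (3.13). The 3 members below the expectation were HAI1 (SAG113) at -2.69, WRKY53 at -1.81 and SAG13 at -0.36.

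MGDC (MGD3, AT2G11810), which makes galactolipids that replace phospholipids under phosphate shortage, was at 3.23, 3.06 and 4.97 FPKM in ccrfer, 2.26, 2.77 and 1.64 in the libraries labelled fer, 1.94, 2.18 and 2.22 in ccr, and 60.7, 55.6 and 52.8 in WT. The WT libraries stood far above the other 9, whose genotypes were close together. Its interaction was 4.76 (SE 0.235, adjusted p = 2.58e-08). SPX1, a phosphate sensor, had 13.3 FPKM in ccrfer, 18.6 in the libraries labelled fer, 6.11 in ccr and 211 in WT (4.41). PHO1;H1, a phosphate exporter, had 10.6 FPKM in ccrfer, 9.78 in the libraries labelled fer, 5.21 in ccr and 82.5 in WT (3.85), and the transporter PHT1;4 had 3.79 FPKM in ccrfer, 3.01 in the libraries labelled fer, 2.97 in ccr and 33.3 in WT (3.35). PHR1, the regulator of the response, did not pass the test (0.19, adjusted p = 0.0653), nor did PAP17 (0.32, adjusted p = 0.392) and PAP10 (0.13, adjusted p = 0.354).

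**Figure D3:**
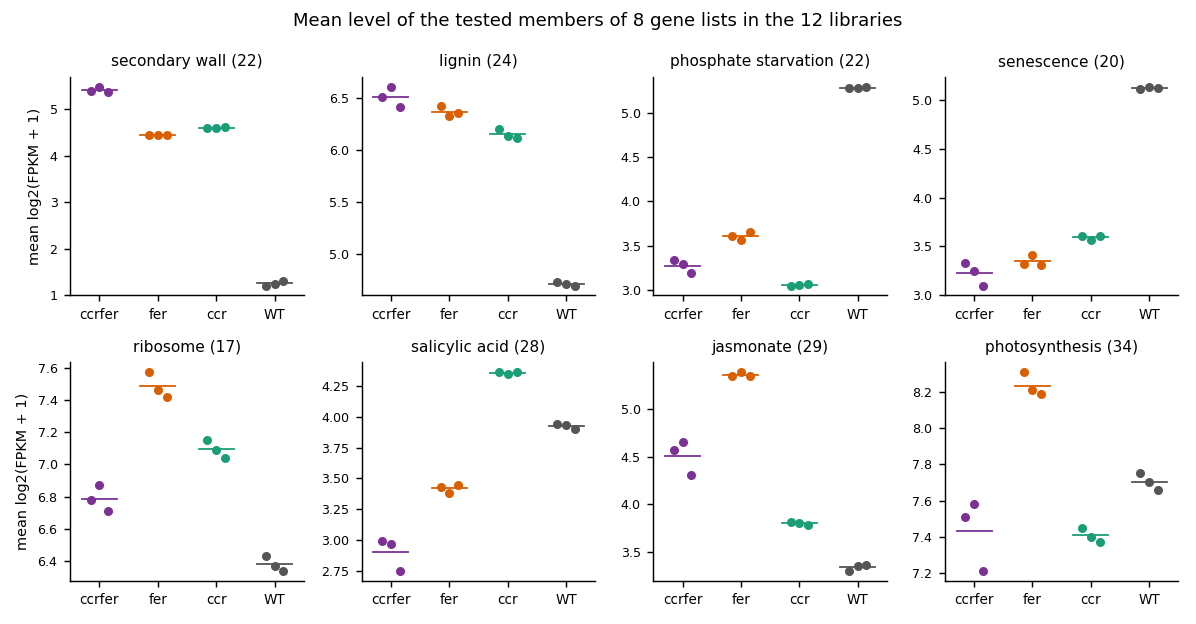
Points are the mean log2(FPKM + 1) of the tested members of 8 gene lists in each library, with the number of members in brackets and a bar at the genotype mean. The tick fer stands for the libraries labelled fer, and the vertical axes do not start at 0. Secondary wall and lignin genes are lowest in WT, phosphate and senescence genes highest in WT, ribosome genes higher in both single mutants than in ccrfer or WT, salicylic acid genes highest in ccr, and jasmonate and photosynthesis genes highest in the libraries labelled fer.

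Circadian clock genes split in part by the phase at which they are known to peak. Of 15 tested clock genes 9 were called higher and 4 lower, and the ccr difference passed in both backgrounds with opposite sign in 8. The 4 below the expectation were LHY, RVE1, RVE8 and CCA1, related MYB transcription factors of the morning, with interactions of -3.55, -3.36, -2.91 and -1.84. Those above included genes of the day and evening, such as PRR5 (4.93), FKF1 (3.64), GI (1.68), PRR7 (1.58) and TOC1 (1.37). LHY (AT1G01060) was at 133, 133 and 142 FPKM in ccrfer, 343, 340.0 and 328 in the libraries labelled fer, 201, 201 and 198 in ccr, and 44.0, 40.3 and 39.8 in WT. The level was highest in the libraries labelled fer, both ccrfer and ccr lay between them and WT, and the interaction was -3.55 (SE 0.0735, adjusted p = 2.25e-11), with an additive expectation of 1604 FPKM and 136 found. PRR5 was at 3.19, 5.09 and 3.01 FPKM in ccrfer, 0.671, 2.59 and 0.535 in the libraries labelled fer, 1.22, 2.07 and 1.18 in ccr, and 33.4, 32.4 and 32.1 in WT. It was high in WT and low elsewhere, and the libraries of the 3 mutants overlapped in part. The hour at which each genotype was harvested is not given in the sources used here, and its part in these differences was not tested.

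The promoters of LHY and RVE1 are shown because these genes were highest in the libraries labelled fer and share a G-box, the CACGTG hexamer that binds bHLH and bZIP factors. Each line holds the 250 bases before the annotated start, 5′ to 3′ on the gene's strand, from RefSeq's assembly TAIR10.1, with the G-box in capitals. LHY lies on the minus strand, and its promoter is chr1:37872-38121. RVE1 lies on the minus strand too, at chr5:5692993-5693242.
LHY: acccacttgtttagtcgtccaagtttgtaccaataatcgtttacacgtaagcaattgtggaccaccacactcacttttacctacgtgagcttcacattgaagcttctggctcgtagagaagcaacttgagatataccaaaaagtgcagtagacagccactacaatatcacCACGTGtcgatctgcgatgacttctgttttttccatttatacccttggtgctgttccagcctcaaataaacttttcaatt
RVE1: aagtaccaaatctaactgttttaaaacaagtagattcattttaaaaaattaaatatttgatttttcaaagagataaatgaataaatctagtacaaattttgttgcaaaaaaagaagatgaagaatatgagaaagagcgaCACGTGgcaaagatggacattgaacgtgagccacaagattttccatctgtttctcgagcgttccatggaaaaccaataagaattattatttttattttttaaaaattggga
The G-box starts 80 bases before the start of LHY and 111 bases before that of RVE1. It occurred in 6 of the 13 promoters of called clock genes, against 6.49% of 27443 promoters of the same length. Of these 13 genes 4 were called lower and 9 higher, so the motif was also present among genes called higher. A match is a description of these letters and not a bound site.

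Ribosome genes gave the most uniform reversal. Of 17 tested genes of ribosomal proteins and nucleolar factors, 16 were called lower than the expectation and none higher, with a median interaction of -1.50. In the labelled fer background all 17 were lower in ccrfer (against 21.3% of all genes), while in the WT background 16 were higher in ccr (against 24.0% of all genes). In 16 genes both passed with opposite sign. ATL5 (AT3G25520), ribosomal protein L5, was at 183, 181 and 167 FPKM in ccrfer, 345, 312 and 331 in the libraries labelled fer, 232, 222 and 219 in ccr, and 131, 124 and 119.6 in WT. It was highest in the libraries labelled fer, ccr came next, and ccrfer lay above WT without overlap. The ccrfer minus labelled fer difference was -0.89 (SE 0.0588, adjusted p = 3.60e-07) and the ccr minus WT difference 0.84 (SE 0.0588, adjusted p = 3.18e-07). FIB2, a fibrillarin that guides rRNA methylation, was at 5.79, 4.51 and 7.79 FPKM in ccrfer, 16.9, 19.3 and 16.1 in the libraries labelled fer, 10.9, 9.01 and 9.87 in ccr, and 3.81, 5.24 and 5.21 in WT. The single mutants were above the double mutant and WT, which overlapped, and the interaction was -2.34 (SE 0.237, adjusted p = 9.09e-06). The member that did not pass was NUC-L1, a nucleolin (-0.23, adjusted p = 0.112). With quantile normalization, 13 of the 17 passed as lower in ccrfer. AT2G01021 lay between 1429630 and 15147300 FPKM in the libraries labelled fer, above every ccr and WT library, and with its level as a covariate all 17 still passed as lower in ccrfer.

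Nitrogen genes showed reversals in both directions. Of 12 tested genes of nitrate uptake and reduction 7 were called lower and 2 higher, with opposite ccr differences in 6. LBD37, a repressor of nitrogen-responsive genes, was at 4.64, 4.65 and 5.52 FPKM in ccrfer, 15, 14.8 and 16.6 in the libraries labelled fer, 19.5, 18 and 18 in ccr, and 4.59, 4.41 and 5.0 in WT. Both single mutants were high, and ccrfer lay close to WT. Its interaction was -3.25 (SE 0.137, adjusted p = 6.59e-09), and its relatives LBD38 and LBD39 had -2.68 and -2.83. NRT1.7, which loads nitrate into phloem, had the opposite pattern with 109.6 FPKM in ccrfer, 52.4 in the libraries labelled fer, 32.0 in ccr and 139 in WT (3.14). NIA1, a nitrate reductase, was low in the libraries labelled fer, with 52.7 FPKM in ccrfer, 14.9 in the libraries labelled fer, 57.1 in ccr and 65.4 in WT (1.95).

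Some genes were low in both single mutants and high in both WT and the double mutant. This order, with ccrfer and WT high, was found in 194 called genes (2.67% of the called, against 1.68% of all genes tested). Its mirror image, with both single mutants high, was found in 270 (3.71%, against 2.24%). The split does not require ccrfer to equal WT. UMAMIT17 (AT4G08300), of a family of amino acid transporters, was at 80.9, 87.0 and 89.0 FPKM in ccrfer, 14.8, 16.1 and 15.3 in the libraries labelled fer, 29.9, 32.0 and 28.7 in ccr, and 76.5, 73.3 and 75.2 in WT. The ccrfer libraries lay above all WT libraries, and both single mutants lay below, with the libraries labelled fer the lowest. It was found at 85.5 FPKM in ccrfer, against an additive expectation of 5.72, and the interaction was 3.69 (SE 0.0863, adjusted p = 5.00e-11). EARLI1, a lipid transfer-like protein, was at 9.92, 6.74 and 12.1 FPKM in ccrfer, 1.40, 1.15 and 3.18 in the libraries labelled fer, 1.45, 0.915 and 1.21 in ccr, and 11.8, 14.5 and 15.8 in WT. It was high in WT and ccrfer and low in both single mutants, and its interaction was 4.67 (SE 0.360, adjusted p = 9.35e-07). The metallothionein MT1C was highest in the single mutants, with 1.56 FPKM in ccrfer, 8.86 in the libraries labelled fer, 4.03 in ccr and 0.960 in WT (-3.44).

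Many salicylic acid genes were higher in ccr than in WT, and none was higher in ccrfer than in its single-mutant background. Of 28 tested genes 17 were called lower than the expectation and 4 higher, with a median interaction of -0.74. In the labelled fer background none of the 28 was higher in ccrfer (19.3% of all genes were) and 16 were lower (21.3%). In the WT background 13 were higher in ccr (24.0% of all genes were) and 6 lower (19.8%). The ccr genotype stood apart as the highest in 6 of the called genes, and 9 had opposite ccr differences.

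PR1 (AT2G14610), the marker protein of systemic acquired resistance, was at 1.03, 0.991 and 0 FPKM in ccrfer, 0.988, 1.2 and 1.47 in the libraries labelled fer, 32.7, 28.5 and 31.3 in ccr, and 0.419, 1.04 and 0.361 in WT. The ccr libraries stood far above the other 9, which overlapped. Its interaction was -4.80 (SE 0.365, adjusted p = 8.47e-07), with 0.593 FPKM in ccrfer and an additive expectation of 43.4. PR5, a thaumatin-like defence protein, had 101 FPKM in ccrfer, 159 in the libraries labelled fer, 711 in ccr and 186 in WT (-2.61), and BGL2 (PR2), a glucanase, had 374 FPKM in ccrfer, 775 in the libraries labelled fer, 1449 in ccr and 527 in WT (-2.51). The pathway's enzymes departed in the same direction, with EDS16 (ICS1), which makes most salicylic acid under infection, at -1.35, and PBS3, which acts on its product, at -1.90. NIMIN1, a binding partner of the receptor NPR1, had 0.215 FPKM in ccrfer, 0.624 in the libraries labelled fer, 11.4 in ccr and 2.02 in WT (-2.41). The 4 members above the expectation were AZI1 (1.65), WRKY54 (1.63), CBP60G (0.61) and NPR1 itself (0.37).

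Camalexin genes had the same order. CYP71A13 (AT2G30770), which makes an indole precursor of this phytoalexin, was at 0.795, 0.837 and 0 FPKM in ccrfer, 2.25, 1.31 and 2.43 in the libraries labelled fer, 8.88, 10.6 and 9.45 in ccr, and 0.950, 0.840 and 1.25 in WT. The ccr libraries were the highest without overlap, and the interaction was -3.39 (SE 0.336, adjusted p = 7.55e-06). PAD3, the last enzyme of the pathway, had 11.2 FPKM in ccrfer, 27.2 in the libraries labelled fer, 55.9 in ccr and 23.1 in WT (-2.46). Of 27 tested genes of pattern-triggered immunity and camalexin, 13 were called lower and 4 higher. LYK5, a chitin receptor, had -1.26 and WRKY22 -2.69, whereas the flagellin receptor FLS2 was above the expectation at 2.23, with 5.44 FPKM in ccrfer, 2.26 in the libraries labelled fer, 4.59 in ccr and 12 in WT. The interactions of CERK1 (-0.11, adjusted p = 0.676), BIK1 (0.23, adjusted p = 0.261) and RBOHD (-0.17, adjusted p = 0.183), all core parts of this signalling, did not pass the test. Of 25 calcium sensors, pumps and channels 9 were called lower and 5 higher, and of 22 cysteine-rich receptor-like kinases 4 were called lower and 6 higher, the lowest of them ARCK1 (CRK45) at -1.79 and the highest CRK41 at 1.47.

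Other genes with ccr apart fell outside defence. FSD1 (AT4G25100), the iron superoxide dismutase of chloroplasts, was at 43.4, 32.8 and 30.2 FPKM in ccrfer, 129.9, 128 and 142 in the libraries labelled fer, 0.298, 0.670 and 0.820 in ccr, and 77.3, 71.7 and 77.4 in WT. It was nearly absent from ccr, and each of the other genotypes was separate, with the libraries labelled fer the highest. The ccr difference was -1.89 (SE 0.139, adjusted p = 8.36e-07) in the labelled fer background and -5.60 (SE 0.139, adjusted p = 5.84e-11) in the WT background. Its interaction was 3.70 (SE 0.196, adjusted p = 4.43e-08), while in plain FPKM the interaction had the opposite sign. MYB90, a regulator of anthocyanin genes, had 39.6 FPKM in ccrfer, 43.9 in the libraries labelled fer, 9.26 in ccr and 93.8 in WT (3.06), and CHX16, a cation exchanger, had 7.49 FPKM in ccrfer, 3.05 in the libraries labelled fer, 0.685 in ccr and 6.05 in WT (3.13). PCR1, of the plant cadmium resistance family, was high in ccr with 0.377 FPKM in ccrfer, 1.25 in the libraries labelled fer, 43.0 in ccr and 5.26 in WT (-3.51).

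Stress genes of abscisic acid, drought and cold departed in both directions. Of 26 tested genes, 13 were called higher and 8 lower, with a median of 0.42. Among the called, ccr stood apart as the highest in 4 and the libraries labelled fer as the lowest in 7. P5CS1, which makes proline, had 30.9 FPKM in ccrfer, 24.0 in the libraries labelled fer, 79.6 in ccr and 5.88 in WT (-3.19). RD26, a NAC factor of dehydration, had 3.74 FPKM in ccrfer, 9.18 in the libraries labelled fer, 32.9 in ccr and 8.26 in WT (-2.98). Other members lay above the expectation. LTI30 (AT3G50970), a dehydrin, was at 48.3, 51.2 and 48.7 FPKM in ccrfer, 1.21, 2.74 and 1.68 in the libraries labelled fer, 28.9, 29.9 and 27.0 in ccr, and 54.9, 58.9 and 54.4 in WT. Levels in the libraries labelled fer were far below all others, and the interaction was 5.11 (SE 0.207, adjusted p = 4.98e-09). LTI78 (RD29A) had 18.8 FPKM in ccrfer, 0.960 in the libraries labelled fer, 16.6 in ccr and 38.4 in WT (4.51), and DREB1A (CBF3), an upstream factor of the cold response, had 4.43 FPKM in ccrfer, 0.139 in the libraries labelled fer, 5.89 in ccr and 15.4 in WT (3.28). COR47 (2.60) and KIN2 (2.67) departed in the same direction, while CBF1, a relative of DREB1A at 0.0307 FPKM in ccrfer, 0.0460 in the libraries labelled fer, 1.14 in ccr and 0.326 in WT, was called below at -0.71.

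Further genes were low in the libraries labelled fer and high in ccrfer. FPF1, a small protein that promotes flowering, had 19.6 FPKM in ccrfer, 1.00 in the libraries labelled fer, 9.74 in ccr and 31.8 in WT (5.01). AHP4, a phosphotransfer protein of cytokinin signalling, was at 56.6, 68.8 and 71.3 FPKM in ccrfer, 2.85, 3.53 and 3.87 in the libraries labelled fer, 22.2, 22.6 and 19.6 in ccr, and 39.2, 38.2 and 36.4 in WT. The libraries labelled fer did not overlap the other 9, and the interaction was 4.71 (SE 0.153, adjusted p = 9.51e-10). GPT2, a plastid glucose 6-phosphate translocator, had 67.3 FPKM in ccrfer, 2.56 in the libraries labelled fer, 63.3 in ccr and 18 in WT (2.47). Of 8 hypoxia genes 6 were called higher and 1 lower, with a median of 1.09. AT4G33070 (PDC1), a pyruvate decarboxylase of fermentation, had 2.23 FPKM in ccrfer, 0.296 in the libraries labelled fer, 1.44 in ccr and 3.06 in WT (2.04), and ADH1, the alcohol dehydrogenase, had 36.2 FPKM in ccrfer, 14.3 in the libraries labelled fer, 31.2 in ccr and 34.8 in WT (1.44). The ethylene receptor gene ETR2 had an interaction of 1.67.

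In many jasmonate genes the libraries labelled fer exceeded the double mutant. Of 29 tested genes 20 were called lower and 2 higher, with a median interaction of -1.25. In the labelled fer background 20 were lower in ccrfer (21.3% of all genes were) and 4 higher (19.3%). In the WT background 14 were higher in ccr (24.0% of all genes were) and 3 lower (19.8%). VSP2 (AT5G24770), a storage protein induced by jasmonate, was at 821, 843 and 745 FPKM in ccrfer, 1939.8, 1870.1 and 1906 in the libraries labelled fer, 126, 136 and 124 in ccr, and 16.1, 15.9 and 16.6 in WT. All genotypes were separate and WT was the lowest, and the interaction was -4.16 (SE 0.0831, adjusted p = 1.68e-11). NATA1, an acetyltransferase induced by jasmonate, was at 30.6, 36.8 and 23.4 FPKM in ccrfer, 189, 175 and 193 in the libraries labelled fer, 3.18, 3.31 and 3.49 in ccr, and 1.07, 1.26 and 1.34 in WT. The libraries labelled fer exceeded ccrfer, which exceeded ccr and WT, and the interaction was -3.56 (SE 0.186, adjusted p = 3.90e-08). JMT, which methylates jasmonate, had 1.13 FPKM in ccrfer, 12.9 in the libraries labelled fer, 0.813 in ccr and 0.338 in WT (-3.31), and LOX2, a lipoxygenase of jasmonate synthesis, had 70.1 FPKM in ccrfer, 216 in the libraries labelled fer, 6.91 in ccr and 2.51 in WT (-2.78). Among the JAZ repressors the lowest interaction was that of JAZ5 (-2.71), and MYC2, the transcription factor they hold, had -1.25. The exceptions were AOC2, an allene oxide cyclase, at 2.28 and LOX3 at 0.60.

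Some heat shock and photosynthesis genes were also highest in the libraries labelled fer. Of 11 tested heat shock genes 6 were called lower and 1 higher, with a median of -1.06. HSP70 (AT3G12580) was at 12.1, 16.1 and 13.5 FPKM in ccrfer, 159.8, 158 and 151 in the libraries labelled fer, 21.3, 19.4 and 19.4 in ccr, and 29.6, 26.9 and 26.9 in WT. The libraries labelled fer were far above the other 9, and the interaction was -2.95 (SE 0.127, adjusted p = 7.46e-09). HSP90.1, a chaperone as well, had 19.7 FPKM in ccrfer, 106 in the libraries labelled fer, 25.0 in ccr and 29.3 in WT (-2.15). Of 34 nuclear photosynthesis genes 16 were called lower and 1 higher, with a median of -0.35, and the libraries labelled fer stood apart as the highest genotype in 13. LHCB2.2, an antenna protein, had 71.7 FPKM in ccrfer, 302 in the libraries labelled fer, 64.3 in ccr and 55.8 in WT (-2.31), and RBCS3B, a small subunit of Rubisco, had 69.8 FPKM in ccrfer, 273 in the libraries labelled fer, 87.7 in ccr and 75.9 in WT (-2.17). In the labelled fer background 33 of the 34 were lower in ccrfer (21.3% of all genes were), a count that was 21 with quantile normalization. In the WT background 19 were lower in ccr (19.8% of all genes were).

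Of the 17 tested genes of copper and iron homeostasis 11 were called lower and 3 higher, and in 4 of the called the libraries labelled fer stood apart as the highest. NAS4, a nicotianamine synthase, had 6.97 FPKM in ccrfer, 85.4 in the libraries labelled fer, 8.33 in ccr and 11.1 in WT (-3.20). The ligase BTS (-2.23), the transcription factor PYE (-1.58) and the transporter OPT3 (-1.21), all of the iron response, were highest there too. The copper and zinc superoxide dismutases CSD1 (-0.73) and CSD2 (-1.35) were instead lowest in WT. The members above the expectation were FSD1, described above, COPT1, a copper transporter, at 1.67 and FRO4, a metal reductase, at 0.98, and YSL1 did not pass the test (0.37, adjusted p = 0.0764).

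Seed storage transcripts were detected almost exclusively in the libraries labelled fer. Of 15 seed markers 10 passed the filter on low values, and these could pass through the libraries labelled fer alone. The summed FPKM of the 15 markers was 4.76 to 7.63 in ccrfer, 182 to 195 in the libraries labelled fer, 5.85 to 8.12 in ccr and 0.316 to 1.05 in WT. SESA3 (AT4G27160), a storage albumin, was at 0.505, 0.203 and 0 FPKM in ccrfer, 57.9, 56.2 and 68.1 in the libraries labelled fer, 1.06, 0.312 and 0.511 in ccr, and 0, 0 and 0 in WT. No other library came near those labelled fer, and SESA3 was listed at 0 in all WT libraries. Because a gene that is absent elsewhere passes the filter only where it is high, the 10 calls below the expectation are a description. In 9 of them the libraries labelled fer stood apart as the highest genotype. In the tenth, OLEO4, WT stood apart as the lowest, with 5.31 FPKM in ccrfer, 6.45 in the libraries labelled fer, 4.66 in ccr and 0.429 in WT. The size of these interactions depends on the pseudocount, with a median of -3.75 at 1 and -7.59 at 0.1. Flower markers summed to 0.859 to 1.3 FPKM in ccrfer, 0.845 to 2.1 in the libraries labelled fer, 0.375 to 0.577 in ccr and 0.391 to 0.528 in WT. The part of seed tissue in the other differences of these libraries was not tested.

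The promoters of SESA3 and of OLEO1, an oil body protein, are shown as members of this group that hold the G-box, which occurred in 5 of the 10 promoters of the called seed genes. JAZ8, a jasmonate repressor with 0.694 FPKM in ccrfer, 5.34 in the libraries labelled fer, 0.304 in ccr and 0.306 in WT, is shown beside them with a G-box and a W-box, the TTGACC hexamer known to bind WRKY factors. The 250 bases before each start are given 5′ to 3′ from TAIR10.1 of RefSeq, all on the plus strand, with both motifs in capitals on either strand. The regions are chr4:13611546-13611795 for SESA3, chr4:12900180-12900429 for OLEO1 and chr1:10596102-10596351 for JAZ8.
SESA3: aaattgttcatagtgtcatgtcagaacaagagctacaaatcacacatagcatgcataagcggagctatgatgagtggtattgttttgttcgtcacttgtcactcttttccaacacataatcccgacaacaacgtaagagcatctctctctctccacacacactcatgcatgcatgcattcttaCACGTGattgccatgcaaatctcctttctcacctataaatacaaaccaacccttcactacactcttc
OLEO1: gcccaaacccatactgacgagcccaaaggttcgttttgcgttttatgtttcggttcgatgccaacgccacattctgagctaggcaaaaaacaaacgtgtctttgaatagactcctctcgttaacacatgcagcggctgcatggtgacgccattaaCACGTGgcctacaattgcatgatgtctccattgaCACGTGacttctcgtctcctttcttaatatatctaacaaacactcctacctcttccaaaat
JAZ8: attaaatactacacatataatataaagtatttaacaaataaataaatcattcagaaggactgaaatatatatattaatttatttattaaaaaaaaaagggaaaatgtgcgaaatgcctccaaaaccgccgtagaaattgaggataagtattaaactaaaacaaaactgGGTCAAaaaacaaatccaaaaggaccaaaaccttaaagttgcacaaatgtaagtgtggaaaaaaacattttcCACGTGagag
The G-box starts 67 bases before SESA3, 95 and 61 bases before OLEO1 and 10 bases before JAZ8, where the W-box starts at 82 bases and reads on the other strand. Of the 22 promoters of called jasmonate genes 5 held a G-box and 2 (9.1%) a W-box, which occurred in 12.18% of all 27443 promoters.

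**Figure D4:**
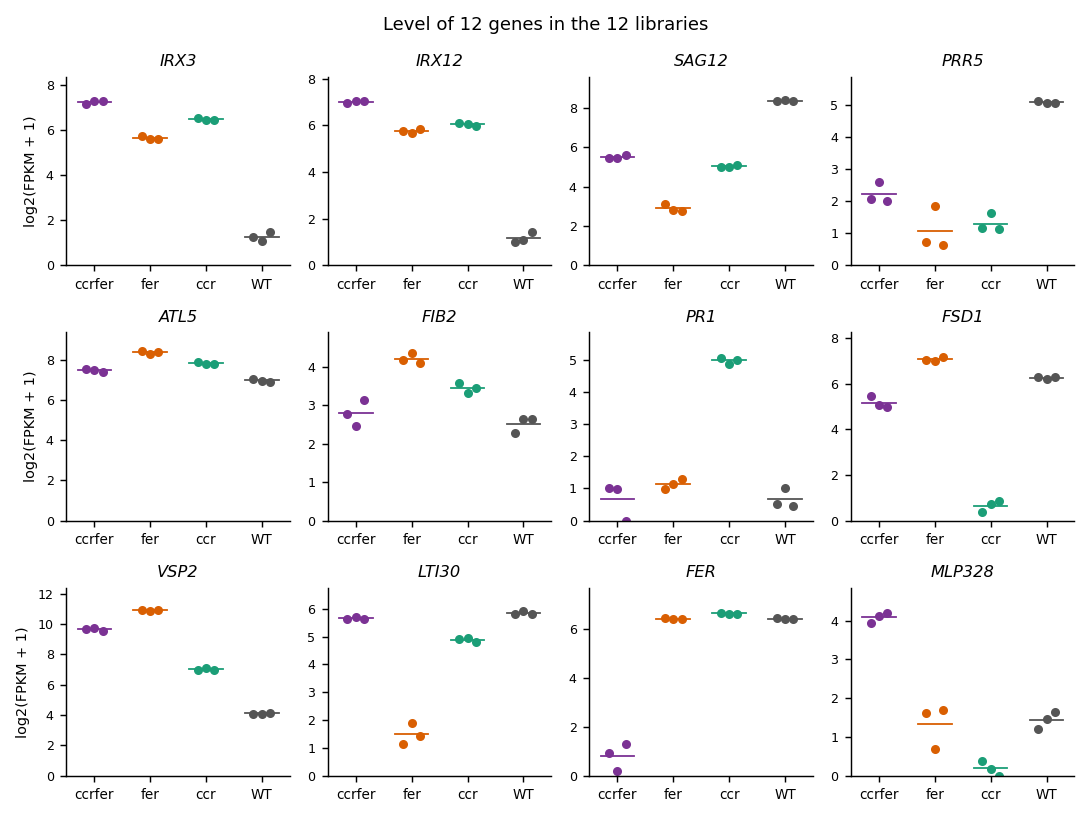
Points are the log2(FPKM + 1) of 12 genes in each library, with a bar at the genotype mean, and the tick fer stands for the libraries labelled fer. IRX3 and IRX12 are low in WT, SAG12 and PRR5 high in WT, ATL5 and FIB2 higher in both single mutants, PR1 high and FSD1 low in ccr, VSP2 high and LTI30 low in the libraries labelled fer, and FER low and MLP328 high in ccrfer.

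Few genes set the double mutant apart. Of the 353 called, 143 were highest and 210 lowest in ccrfer. BXL1 (AT5G49360), an arabinosidase and xylosidase that trims wall polysaccharides, was at 4.03, 4.0 and 4.15 FPKM in ccrfer, 35.5, 37.2 and 35 in the libraries labelled fer, 31.5, 30.8 and 28.9 in ccr, and 32.7, 31.8 and 30.8 in WT. The ccrfer libraries lay below all others, and the interaction was -2.80 (SE 0.0894, adjusted p = 8.38e-10), with 4.06 FPKM in ccrfer and an additive expectation of 34.3. BBX14, a B-box zinc finger protein, had 1.54 FPKM in ccrfer, 9.88 in the libraries labelled fer, 9.97 in ccr and 5.31 in WT (-2.91), and MSRB8, a methionine sulfoxide reductase, had 2.47 FPKM in ccrfer, 15.5 in the libraries labelled fer, 14.7 in ccr and 9.89 in WT (-2.82).

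MLP328 (AT2G01520), of the same family as MLP28, was at 14.4, 16.5 and 17 FPKM in ccrfer, 2.06, 0.606 and 2.22 in the libraries labelled fer, 0.305, 0.137 and 0 in ccr, and 1.32, 1.75 and 2.14 in WT. The ccrfer libraries were the highest without overlap, and the interaction was 4.01 (SE 0.347, adjusted p = 2.42e-06). MAF5, a MADS protein that delays flowering, was at 15.3, 12.1 and 70.1 FPKM in ccrfer, 1.93, 2.34 and 4.57 in the libraries labelled fer, 1.11, 1.60 and 1.56 in ccr, and 3.27, 1.14 and 0.642 in WT. Its ccrfer libraries spread widely, and the interaction was 2.74 (SE 0.778, adjusted p = 0.0148), which was not called on the square root scale (adjusted p = 0.0527). RWP1, a feruloyl transferase of suberin, had 11.6 FPKM in ccrfer, 2.87 in the libraries labelled fer, 2.61 in ccr and 4.62 in WT (2.32), and LAC3, a laccase, had 5.04 FPKM in ccrfer, 0.460 in the libraries labelled fer, 0.168 in ccr and 0.896 in WT (2.75).

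Glucosinolate genes were lower than the expectation by small steps. Of 23 tested genes of their biosynthesis 18 were called lower and 3 higher, with a median of -0.64. In the labelled fer background none was higher in ccrfer (19.3% of all genes were) and 15 were lower (21.3%). In the WT background 13 were higher in ccr (24.0% of all genes were) and 6 lower (19.8%). MYB29, a regulator of the aliphatic branch, had 189 FPKM in ccrfer, 189.6 in the libraries labelled fer, 97.6 in ccr and 9.77 in WT (-3.20), and the other called members lay between -2.33 (MYB76) and 0.84 (CYP79F2). ER bodies are vesicles that store a beta-glucosidase, and several of their genes were high both in ccrfer and in the libraries labelled fer. PYK10, that beta-glucosidase, had 90.9 FPKM in ccrfer, 76.7 in the libraries labelled fer, 2.07 in ccr and 1.96 in WT, with an interaction of 0.19 (SE 0.132, adjusted p = 0.295). BGLU18, a related enzyme, had 579 FPKM in ccrfer, 526 in the libraries labelled fer, 47.0 in ccr and 37.9 in WT, with an interaction of -0.17 (SE 0.10, adjusted p = 0.216). PYK10 differed by 4.91 between ccrfer and ccr and by 4.72 between labelled fer and WT. NSP1, a nitrile specifier protein, was called above the expectation at 1.68, and MBP1, a myrosinase-binding protein, below at -2.06, where the sign was opposite in plain FPKM.

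Several processes had few calls or no common direction, where 39.5% of all genes tested were called. Of 18 cuticle and wax genes 13 did not pass the test, 3 were called higher and 2 lower. Of 9 wall-associated kinases 7 did not pass, 2 were called higher and none lower. Of 12 pectin genes 7 did not pass, 1 was called higher and 4 lower. Of 12 sugar starvation genes 6 did not pass, 4 were called higher and 2 lower. CER1, an enzyme of wax alkane synthesis, had 34.7 FPKM in ccrfer, 1.08 in the libraries labelled fer, 12.7 in ccr and 0.0772 in WT, and its interaction was 0.47 (adjusted p = 0.199). In the flavonoid list 6 of 21 were called higher and 5 lower, with a median of -0.09. PAP1 (MYB75), an anthocyanin activator, had an interaction of -0.04 (adjusted p = 0.729), while F3H (-1.21) and UGT78D1 (-1.46) were called below. The 11 phloem markers gave 5 called higher and 4 lower, with SUC2, the sucrose loader of companion cells, at 1.16 and SEOR1, a sieve element protein, at -2.08. Their summed FPKM was 640.1 to 759.9 in ccrfer, 833 to 889.6 in the libraries labelled fer, 553 to 599 in ccr and 957 to 1000.4 in WT. CCR1, the gene mutated in ccr, had 206 FPKM in ccrfer, 319 in the libraries labelled fer, 199 in ccr and 236 in WT, and its interaction was -0.39 (adjusted p = 0.0559). Whether the ccr and ccrfer libraries lack CCR1 function cannot be told from this transcript level.

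**Figure D5:**
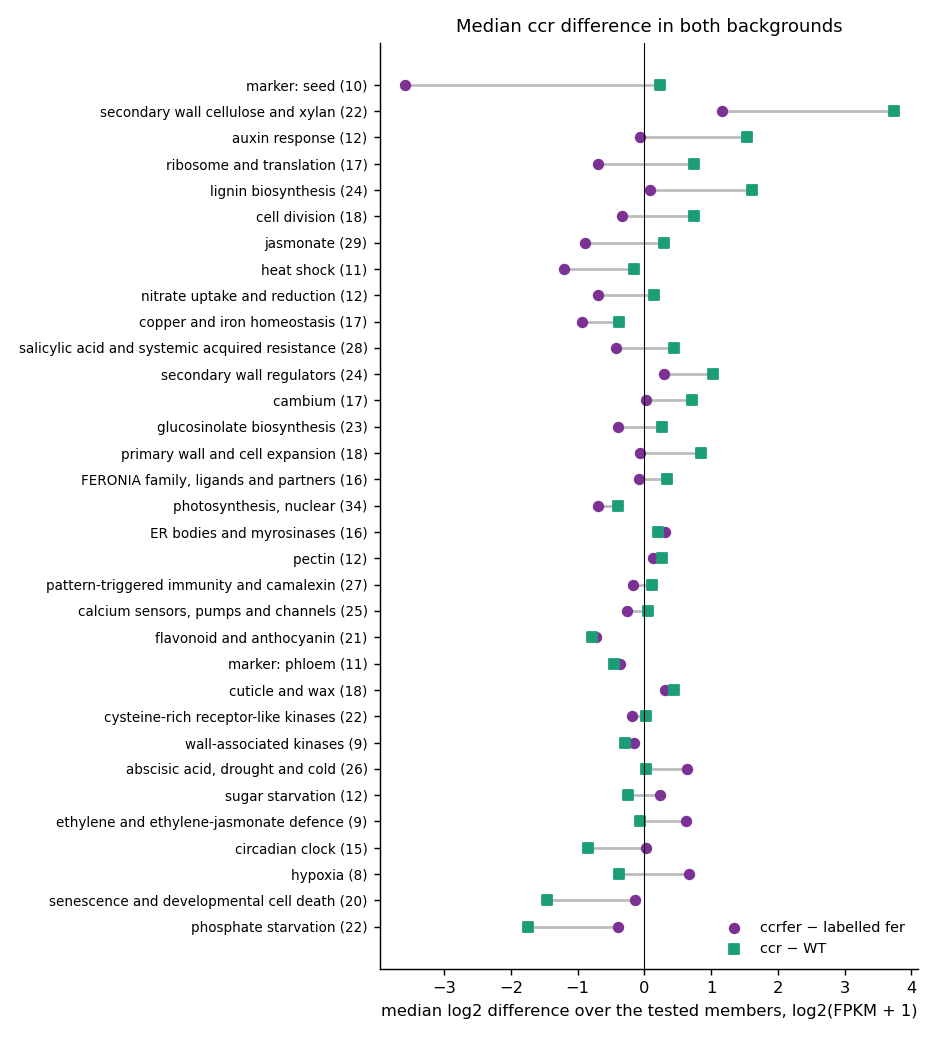
For each list with at least 8 tested members, the purple point is the median ccrfer minus labelled fer difference and the green square the median ccr minus WT difference on the log2(FPKM + 1) scale, with the number of members in brackets and lists ordered by the median interaction. Secondary wall genes lie at 1.16 and 3.74, ribosome genes on opposite sides of 0, and cuticle and flavonoid genes nearly coincide.

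The most extreme interactions belonged to genes listed at 0 in whole genotypes. All 3 libraries of a genotype were at 0 in 65 called genes, and in 7 of these another genotype averaged at least 500 FPKM. RR3 (AT2G41310), a response regulator of cytokinin signalling, was listed at 0 in all ccrfer libraries, at 6599, 7092 and 6146 FPKM in the libraries labelled fer, and at 0 in all ccr and WT libraries. CAT3 (AT1G20620), a catalase, was listed at 3216, 3428 and 2522 FPKM in ccrfer, 3198, 2913 and 2917 in the libraries labelled fer, 2915, 2749.8 and 2705 in ccr, and 0, 0 and 0 in WT. The WT libraries were the only ones at 0. ATCG00490, a plastid gene chosen after its values were seen, was listed at 0 in ccrfer, at 25828, 23189 and 23235 FPKM in the libraries labelled fer, and at 0 in ccr and WT. No fold is given for such genes. Whether they are transcripts or failed estimates was not tested.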

How the data were processed

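TopHat2 2.1.1, Bowtie2 2.3.2.0, Cufflinks 2.2.1, Cuffdiff and the TAIR10 build are named in the submitters' processing notes, and a note in the deposited read report names the annotation, spelled Arabport11. The libraries were stranded and read as pairs of 75 bp, per the labels' protocols and that note. FPKM values for 27655 genes in 12 libraries were deposited by the authors. The read counts and mapped fraction per library were deposited in the authors' read report. No counts per gene were analysed here, and the counting error of a gene is therefore unknown. Library names follow the titles, since the genotype entries of ccrfer replicates 2 and 3 name other fer allele numbers. The authors' own table of selected genes was not used.

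From these values log2(FPKM + 1) was computed, which understates differences of low genes, and 18428 genes with an FPKM of 1 or above in 3 or more libraries were tested, 18265 of them with an entry in the reference table of assembly TAIR10.1 that gave symbols. limma 3.58.1 in R 4.3.3 fitted a mean per genotype with a trended moderation, two-sided, with Benjamini-Hochberg adjustment over all genes tested and a threshold of 0.05. Each SE comes from this fit. The scripts were tested on simulated data. Tables were made with Python 3.11.15, pandas 2.3.3 and numpy 2.4.6.

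The members, the gene lists and the tests were chosen with earlier results of these data known. List members whose symbol the reference table gives to another identifier were dropped (4 of 717). The rule for named genes took CCR1, FER, the 4 genes with the largest absolute interaction for each genotype standing apart high or low and the 2 largest for each split of 2 and 2 genotypes, among genes with a symbol that were called in every fit without 1 library and averaged 5 FPKM or more in the highest genotype, and up to 4 members of each list. This rule named 161 genes. Other list members are given as examples of their list or as members that did not pass or went the other way, and these, ATCG00490 and the promoters shown were chosen after their values were seen. Promoters were searched on both strands for the W-box, the G-box and the AC element.

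The alternatives were another pseudocount, filter, scaling, scale of additivity, moderation, a block for the replicate number, array weights, the level of AT2G01021 as a covariate, another gap, each library left out in turn and, added after the data were seen, the removal of genes listed at 0 in a whole genotype.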

Additional observations from a re-analysis of the deposited data

Results flagged for a closer look

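The difference of the ccr effect between the labelled fer and WT backgrounds, which is the interaction itself, passed the test in 7270 genes. Of these, 1886 passed in both backgrounds with opposite sign. No outlier test was run within the groups of 3 libraries, but array weights were fitted and each library was left out in turn. The library with the lowest weight, ccrfer replicate 3, was kept in the main fit.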

How the results depend on the processing

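Across the alternatives the number of genes called for the interaction lay between 6071, with a minimum mean of 5 FPKM, and 8655, with array weights, and leaving out 1 library gave 6244 to 8415. The number called with opposite sign in both backgrounds was 1548 to 2376 when 1 library was left out, that of genes with labelled fer apart 1454 to 2041 and with ccr apart 259 to 353. The number with ccrfer apart was 274 to 581 when 1 library was left out. A required gap of 0.6 of the range left 225 genes with ccrfer apart and 201 with ccr apart, by construction of a stricter rule. Replicate numbers were not treated as pairs, since 18 same-numbered pairs had correlations of -0.129 to 0.191 after removal of genotype means, and with a replicate block 7113 genes were called, of which 6923 were called in the same direction without it. Of 161 named genes, 153 kept their call under all 26 alternatives and none changed direction. The other 8 lost or gained a call, among them CCR1, whose interaction was called with the replicate block (-0.39, adjusted p = 0.0218), with the AT2G01021 covariate, on the square root scale and without WT replicate 1 or ccrfer replicate 2 (adjusted p = 0.0139 to 0.0463). With a minimum mean of 5 FPKM only 4 of 18 cell division genes were tested, and 3 of these were called lower. Depth per gene was unknown, and FPKM values carry no counting error.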

Other observations

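Another plastid gene was listed at 0 in a whole genotype. ATCG00340 was listed at 5127, 4466 and 5623 FPKM in ccrfer, 3951, 4429 and 4338 in the libraries labelled fer, 0, 0 and 0 in ccr, and 4275, 4886 and 5188 in WT, and it was chosen after its values were seen. The ccr libraries were the only ones at 0. Of the 124 genes tested that had all 3 libraries of a genotype at 0, 65 were called for the interaction, 29 of them with a mean of 5 FPKM or more in another genotype.

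DGAT2 (AT3G51520), a diacylglycerol acyltransferase gene near FER, was chosen after its values were seen as a second check of the labels. It was at 0.130, 0.0415 and 0 FPKM in ccrfer, 0.374, 0 and 0 in the libraries labelled fer, 18.6, 21.5 and 19.1 in ccr, and 23.7, 24.7 and 24.6 in WT. It was low in ccrfer and in the libraries labelled fer alike and well expressed in ccr and WT, and its interaction did not pass the test (0.22, adjusted p = 0.421). FER, in contrast, separated ccrfer from the libraries labelled fer.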
